A study of Rattus norvegicus with 30 samples.

Results

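The comparison set 5 arrays of primary rat hepatocytes exposed to 0.8 µM chlorpromazine HCl for 48 h against 5 arrays of vehicle cultures harvested at the same time. These 10 arrays were picked by the dose and time in their titles, out of 30 arrays in all, without use of a measured value. The comparison itself and the gene lists used below were chosen with earlier results of these data known. Treated wells received 0.8 µM chlorpromazine, and vehicle wells received 1% DMSO. The titles of the treated arrays name no DMSO level, and whether the solvent differed between the groups was not tested. The hepatocytes were cryopreserved cells of male Sprague Dawley rats, plated on collagen under a Matrigel overlay and dosed on day 3 of culture. Each array carried RNA of 1 well, and the labels call the 5 wells of a group independent cultures without naming separate animals. The p-values therefore reflect how far wells differ. The other 20 arrays held 0.8 µM cultures at 24 h, 20 µM cultures at 24 and 48 h, and vehicle cultures at 24 h. Array numbers ran through the groups in the same order in every set of 6, so position within a set cannot be told apart from dose.

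Chlorpromazine is a phenothiazine antipsychotic, and its base and its hydrophobic ring system make it a cationic amphiphilic drug that collects in acidic lysosomes. In patients it is known for cholestatic liver injury. Hepatocytes clear such drugs by oxidation through cytochrome P450 and flavin monooxygenase enzymes, then by conjugation and export, and the same cells make bile acids from cholesterol and move them from blood to bile. Foreign compounds alter transcription through receptors such as AhR, which drives Cyp1a1 and Cyp1a2, and CAR and PXR, which drive Cyp2b and Cyp3a genes.

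No array stood apart by these measures. Median signals ran from 395 to 425 on the 0.8 µM arrays and from 385 to 448 on the vehicle arrays, and an array's mean correlation with its own group was 0.958 to 0.960 at 0.8 µM and 0.956 to 0.958 in vehicle. The mean correlation between arrays of different groups was 0.957. Of 10 hepatocyte markers 9 were on the array and all lay above the dim limit, with albumin (Alb) at a mean log2 signal of 16.48 at 0.8 µM and 16.56 in vehicle. Of these 9, Fabp1 and Cyp2e1 fell at 0.8 µM, and all 9 log2 changes were negative. Of the markers of other liver cells that the array carries, 2 of 11 Kupffer cell, 7 of 10 leukocyte, 6 of 9 sinusoidal endothelial, 7 of 14 stellate cell and 5 of 7 cholangiocyte genes lay below the dim limit, a log2 signal of 8.08.

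At 0.8 µM the transcript changes were many and small. Using limma with Benjamini-Hochberg adjustment, 383 of 11513 genes changed at an adjusted p under 0.05, which is 3.33% of the genes tested. Higher genes numbered 183 (1.59%) and lower genes 200 (1.74%). The median absolute log2 change of these genes was 0.32, and the smallest was 0.15. Only 3 genes were at least 2-fold higher and 6 at least 2-fold lower, while 10 were at least 1.5-fold higher and 29 at least 1.5-fold lower. The 2 groups of arrays did not overlap at all for 285 of the 383, and over all genes tested 549 (4.77%) had no overlap. The median log2 change of all genes was 0.01. The count of changed genes depended on single arrays: it was 199 without 0.8 µM replicate 5, 228 without vehicle replicate 4 and 237 without 0.8 µM replicate 3, and between 265 and 384 when any other array was left out. Centring each array on its median gave 173 changed genes, 84 higher and 89 lower.

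The largest rises included a decoy cytokine receptor, an AhR target, a glycolytic isoenzyme and a lactate carrier. Il1r2, the decoy receptor for interleukin-1, had log2 signals of 12.13, 12.05, 12.22, 11.84 and 12.01 at 0.8 µM, against 10.86, 10.73, 11.12, 10.57 and 11.33 in vehicle. Every treated array lay above every vehicle array, and the gene was 2.18-fold higher (log2 change 1.13, SE 0.13, limma adjusted p = 2.71e-06). Tmem14a stood at 10.94, 10.22, 10.999, 10.66 and 10.88 at 0.8 µM, against 10.07, 9.55, 9.13, 10.03 and 9.25 in vehicle, a 2.19-fold rise whose arrays came close but did not overlap. Bcl2l12 rose by 1.02 on the log2 scale but was dim, with a vehicle mean under the limit, and its call was lost when any one of 5 arrays was left out.

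Eno2, an enolase isoform best known from neurons, had log2 signals of 10.41, 10.33, 10.65, 10.38 and 10.64 at 0.8 µM, against 9.503, 9.89, 9.48, 9.21 and 10.14 in vehicle (log2 change 0.84, SE 0.17). Below these came Tstd3 (0.67), Stmn1, a microtubule-destabilising protein (0.66), Slc16a3, the lactate exporter MCT4 (0.61), Procr, the endothelial protein C receptor (0.57), and Anxa5, a phospholipid-binding annexin (0.55). The 10 largest rises and the 10 largest falls each reached the smallest p that an exact two-sided permutation of 5 against 5 arrays can give, 0.00794. That value carries no extra weight, because absence of overlap was a condition for naming these 20 genes. The Stmn1 call was lost when any single array of the 10 was left out, and that of Slc16a3 when any one of 5 was.

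The largest falls were led by sulfotransferases, an uptake carrier and enzymes of lipid and ester metabolism. Sult1e1, the estrogen sulfotransferase, had log2 signals of 9.83, 9.74, 9.76, 10.08 and 9.60 at 0.8 µM, against 11.22, 11.24, 11.28, 11.23 and 10.82 in vehicle. The groups were far apart, with the lowest vehicle array above the highest treated one, and the gene was 2.56-fold lower (log2 change -1.36, SE 0.16, limma adjusted p = 2.71e-06). Sult2a6, a hydroxysteroid sulfotransferase, stood at 9.73, 9.82, 9.71, 9.81 and 9.39 at 0.8 µM, against 10.86, 10.83, 11.12, 11.15 and 10.71 in vehicle, and was 2.37-fold lower.

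Pemt makes phosphatidylcholine by methylating phosphatidylethanolamine, a route used mainly in liver. Its log2 signals were 10.84, 10.59, 10.84, 10.74 and 10.35 at 0.8 µM, against 11.60, 11.73, 11.56, 11.66 and 11.47 in vehicle, a 1.91-fold fall (SE of the log2 change 0.11). Slco1a4, a sinusoidal organic anion uptake carrier, fell 2.03-fold on its brightest probe set, while its other kept probe set had a log2 change of -0.57 that did not pass the test. Further large falls were Dhrs7l1, a short-chain dehydrogenase (-1.12), Omd, the proteoglycan osteomodulin (-1.05), Adgrv1, an adhesion receptor (-0.91), Ddn (-0.87) and Ces1d, a carboxylesterase (-0.85). The Ddn call was lost when any one of 4 arrays was left out. Ska3, a kinetochore protein, had the largest fall among genes that passed the test (-1.67), but it was dim in the treated cultures: its log2 signals there were 4.77, 5.08, 7.38, 7.04 and 7.74, against 8.19, 7.87, 7.88, 8.02 and 8.42 in vehicle. Its call was lost without 0.8 µM replicate 1 or replicate 2.

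**Figure D1:**
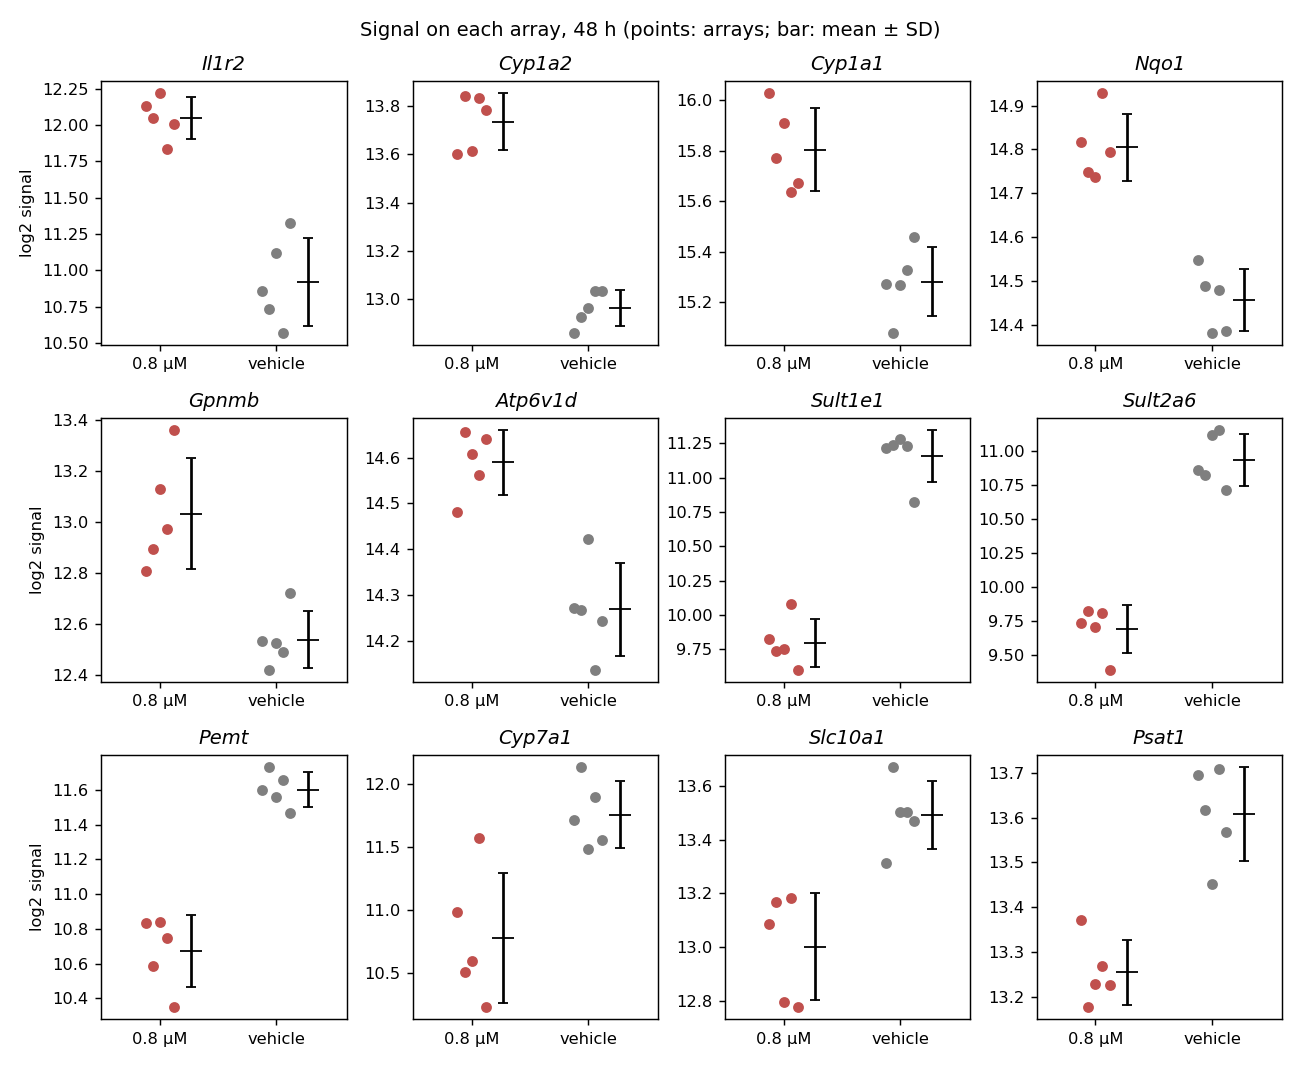
Log2 signal of 12 genes on each 48 h array, with 0.8 µM chlorpromazine in red on the left of each panel and vehicle in grey on the right; each point is 1 array and the bar is the mean with its SD (n = 5 each). Il1r2, Cyp1a2, Cyp1a1, Nqo1, Gpnmb and Atp6v1d are higher at 0.8 µM and the other 6 genes lower, and of these 12 genes Cyp7a1 alone has arrays that overlap between the groups.

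Several AhR targets were higher. Of 7 measured members, 3 rose and none fell, and the median log2 change was 0.23, against 0.01 over all genes tested. The share of all genes that rose was 1.59%. Cyp1a2, a P450 that oxidises aromatic amines and caffeine, had log2 signals of 13.60, 13.84, 13.62, 13.83 and 13.79 at 0.8 µM, against 12.86, 12.93, 12.96, 13.04 and 13.04 in vehicle (1.71-fold higher, limma adjusted p = 3.03e-08). Cyp1a1, its inducible relative, stood at 16.03, 15.77, 15.91, 15.63 and 15.67 at 0.8 µM, against 15.27, 15.08, 15.27, 15.33 and 15.46 in vehicle. It was bright in both groups, without overlap, and 1.44-fold higher. Nqo1, a quinone reductase driven by both AhR and NRF2, rose 1.27-fold. All 3 also changed at 24 h in separate cultures, by 0.33, 0.70 and 0.35 on the log2 scale for Cyp1a2, Cyp1a1 and Nqo1.

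The P450 and flavin monooxygenase enzymes that hepatocytes express without an inducer included many that were lower. Of 20 measured members 8 fell and none rose, 18 had a negative log2 change, and the median was -0.26. Over all genes, 1.74% fell and 5382 of 11513 had a negative change. Cyp2d3 and Cyp2d2, members of the subfamily whose human counterpart oxidises many antidepressants and antipsychotics, fell by 0.49 and 0.33 on the log2 scale. Cyp2c11, the male-specific P450 of rat liver, had log2 signals of 13.66, 13.31, 13.35, 13.93 and 13.26 at 0.8 µM, against 14.06, 13.99, 13.87, 14.01 and 14.05 in vehicle. Replicate 4 of the treated cultures lay inside the vehicle range, and the fall was 1.41-fold (SE of the log2 change 0.09).

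Cyp2e1, which oxidises ethanol and small solvents, was 1.29-fold lower, although its call was lost without 0.8 µM replicate 3, 0.8 µM replicate 5 or vehicle replicate 4. Fmo1, a monooxygenase that N-oxidises tertiary amines, was 1.34-fold lower, and its call was lost without 0.8 µM replicate 5. The remaining members that fell were Cyp2j3 (-0.45), Cyp4f1 (-0.27) and Fmo5 (-0.21). Cyp2c12, the P450 characteristic of female rat liver, showed a log2 change of -1.28 with an SE of 0.41 and did not pass the test (limma adjusted p = 0.0815), although its arrays did not overlap. Centring the arrays on their medians left 5 members of this group changed, all lower.

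The genes listed for CAR and PXR, which include a receptor gene as well as targets, did not move one way. Of 15 measured, 1 rose and 4 fell, beside 1.59% and 1.74% of all genes tested. Cyp3a18 had log2 signals of 12.24, 12.17, 12.001, 12.15 and 11.91 at 0.8 µM, against 12.88, 12.81, 12.83, 12.84 and 12.91 in vehicle, and its 1.69-fold fall had the same adjusted p as the rise of Cyp1a2, the smallest of all genes tested. The other falls were Cyp2b3 (-0.53), Nr1i3, the gene of CAR itself (-0.43), and Thrsp, a lipogenic protein also counted below (-0.42). Cyp2c6v1 rose by 0.23, and Cyp3a23-3a1, the main PXR-inducible P450 of the rat, had a log2 change of -0.14 (limma adjusted p = 0.387). Its mean log2 signals were 16.40 at 0.8 µM and 16.54 in vehicle, about as bright as albumin. Whether so bright a probe set could show a rise was not tested.

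Conjugating enzymes were more often lower than higher. Of 21 phase II genes 4 fell and 1 rose, beside 1.74% and 1.59% of all genes tested. Besides Sult1e1 and Sult2a6, the falls were Sult1b1 (-0.33) and the N-acetyltransferase Nat1 (-0.36). Gstp1, a glutathione transferase scarce in normal adult hepatocytes, rose by 0.19, with a call lost when any one of 9 arrays was left out.

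**Figure D2:**
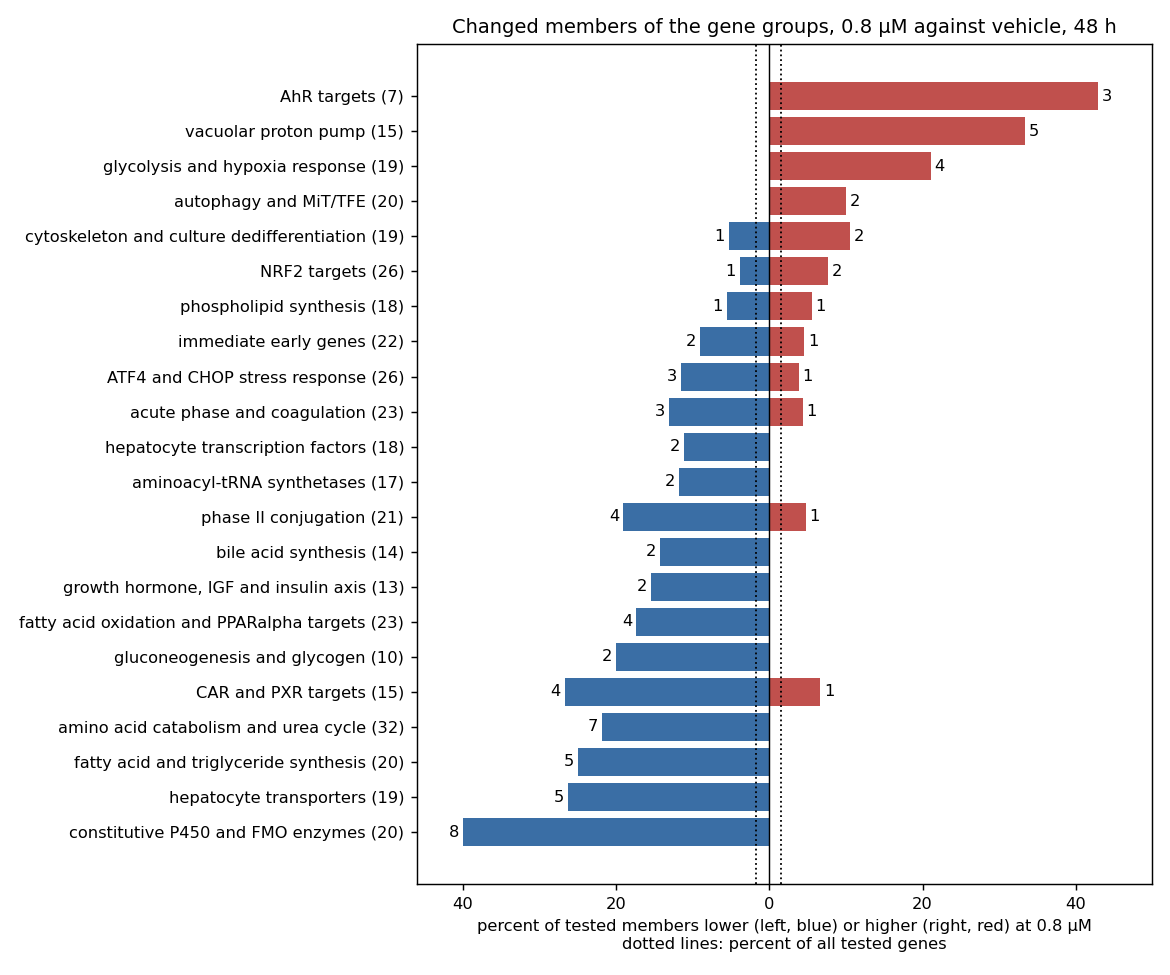
Percent of tested members that changed in each gene group with at least 2 changed members, 0.8 µM against vehicle at 48 h; red bars to the right are higher, blue bars to the left lower, numbers at the bar ends are gene counts and numbers in brackets are members tested. Dotted lines mark the 1.59% of all genes that were higher and the 1.74% that were lower; the longest blue bar is the constitutive P450 and FMO group (8 of 20) and the longest red bar the AhR targets (3 of 7).

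Among genes of bile acid synthesis, the transcript of the entry enzyme was lower, on a call that depended on single arrays. Of 14 measured genes 2 fell and none rose, 12 had a negative change, and the median was -0.16. Over all genes tested 1.74% fell, and 5382 of 11513 had a negative change. Cyp7a1, the rate-limiting enzyme of the classical pathway, had log2 signals of 10.98, 10.51, 10.60, 11.57 and 10.23 at 0.8 µM, against 11.71, 12.13, 11.49, 11.90 and 11.55 in vehicle. Replicate 4 of the treated cultures lay within the vehicle range, the fold was 1.97 lower (log2 change -0.98, SE 0.25, limma adjusted p = 0.0216), and the call was lost when any one of 5 arrays was left out. Cyp39a1, an oxysterol 7-alpha-hydroxylase, fell by 0.58, a call lost without 0.8 µM replicate 3 or vehicle replicate 4. Baat, which joins bile acids to taurine or glycine, had a log2 change of -0.56 (adjusted p = 0.0643). Cyp8b1, the 12-alpha-hydroxylase, had one of -0.22 (adjusted p = 0.224), and at 24 h it fell by 0.51 (adjusted p = 0.0049). The 48 h arrays of Baat and of Cyp8b1 did not overlap, which held for 4.77% of all genes tested.

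Some transporters of bile acids and organic anions were lower. Of 19 measured, 5 fell and none rose, 12 had a negative change and 7 a positive one, and 2 were higher at an unadjusted p under 0.05. The share of all genes tested that fell was 1.74%. Slc10a1, the sodium-dependent bile acid uptake carrier NTCP, had log2 signals of 13.09, 13.17, 12.80, 13.18 and 12.78 at 0.8 µM, against 13.31, 13.67, 13.50, 13.50 and 13.47 in vehicle, a 1.40-fold fall lost without 0.8 µM replicate 5. Abcb11, the canalicular bile salt export pump, was 1.19-fold lower with little spread: 14.16, 14.07, 14.05, 13.99 and 13.99 at 0.8 µM, against 14.25, 14.32, 14.27, 14.36 and 14.30 in vehicle. The remaining falls were Slco1a4, given above, Slco1a1 (-0.60) and the anion carrier Slc22a7 (-0.23). Among 8 measured genes of the FXR and SHP feedback loop limma called none, and 1 had an unadjusted p under 0.05. SHP itself, Nr0b2, was dim on the array, with log2 signals from 5.10 to 7.68 at 0.8 µM and from 4.88 to 8.28 in vehicle, so its level cannot be judged from these values.

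Some genes of amino acid and glucose metabolism were lower. Of 32 urea cycle and amino acid degradation genes 7 fell and none rose (median -0.16), and of 10 genes of gluconeogenesis and glycogen 2 fell, with all 10 log2 changes negative. Among all genes tested 1.74% fell, and 5382 of 11513 had a negative change. Cth, which makes cysteine from cystathionine, had log2 signals of 14.33, 14.25, 14.17, 14.31 and 14.25 at 0.8 µM, against 14.72, 14.70, 14.76, 14.85 and 14.78 in vehicle (1.42-fold lower). Pc, pyruvate carboxylase, stood at 11.95, 11.88, 11.99, 11.93 and 11.89 at 0.8 µM, against 12.36, 12.48, 12.31, 12.37 and 12.59 in vehicle (1.41-fold lower). Both groups of arrays were tight and well separated for these genes. Gys2, liver glycogen synthase, was 1.33-fold lower, Gldc of the glycine cleavage system 1.37-fold and glutamate dehydrogenase Glud1 1.21-fold. The other kept probe sets of Gldc had log2 changes from -0.28 to -0.04 that did not pass. The other falls were Agxt (-0.34), Kynu (-0.32), Cdo1 (-0.25) and Tdo2 (-0.22). With the arrays centred on their medians, 2 of the 7 amino acid genes passed the test.

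Some glycolysis and hypoxia-response genes were higher: 4 of 19 measured rose and none fell, 14 had a positive change and 5 a negative one, and the median was 0.12. These were Eno2 and Slc16a3, given above, the platelet-type phosphofructokinase Pfkp, which was 1.28-fold higher, and Adm, the vasodilator peptide adrenomedullin, which was 1.29-fold higher. The Adm call was lost without 0.8 µM replicate 3, 0.8 µM replicate 5 or vehicle replicate 2. Among all genes tested 1.59% rose, and 6131 of 11513 had a positive change.

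Lipid genes that changed were mostly lower. Of 20 genes of fatty acid and triglyceride synthesis 5 fell and none rose, and 16 had a negative change. Among all genes tested 1.74% fell, and 5382 of 11513 had a negative change. Acaca, acetyl-CoA carboxylase, had log2 signals of 12.89, 12.54, 12.72, 12.94 and 12.61 at 0.8 µM, against 13.52, 13.54, 13.17, 13.38 and 13.36 in vehicle (1.58-fold lower, limma adjusted p = 1.22e-05), while its other kept probe set showed -0.40 and did not pass. Acly, ATP citrate lyase, fell by 0.41, Thrsp by 0.42, the desaturase Scd, which was also the 1 changed gene of 11 LXR targets, by 0.25 and malic enzyme Me1 by 0.24. Of these, the Acly call was lost without 0.8 µM replicate 2 or 5, that of Scd without vehicle replicate 4 or 5, and that of Me1 without 0.8 µM replicate 3 or vehicle replicate 4. The other kept probe set of Me1 had a log2 change of -0.07 that did not pass.

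Of 23 genes of fatty acid oxidation 4 fell and none rose, beside 1.74% of all genes tested that fell and 1.59% that rose. Fabp1, the liver fatty acid binding protein, had log2 signals of 13.05, 12.88, 12.81, 12.85 and 12.60 at 0.8 µM, against 13.56, 13.54, 13.62, 13.57 and 13.45 in vehicle, a 1.63-fold fall. Ech1 (-0.27, lost without 0.8 µM replicate 5 or vehicle replicate 4), Hadhb (-0.15) and the hormone Fgf21 (-0.73) were the others. Cholesterol synthesis genes showed small negative values throughout: 16 of 17 were negative and the median was -0.10, but only Fdft1, squalene synthase, passed the test (-0.31). Sterol regulators had no changed member by limma among 8 measured, and 2 had an unadjusted p under 0.05. Of 18 phospholipid synthesis genes 1 fell, Pemt, and 1 rose, the ethanolamine kinase Etnk1 (0.30). The Etnk1 call was lost when any one of 7 arrays was left out, and its other kept probe set had a log2 change of -0.50 that did not pass. Pnpla3, a lipid droplet lipase, fell by 0.63, a call lost when any one of 7 arrays was left out.

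Subunits of the vacuolar proton pump, which acidifies lysosomes, all had positive changes, and a few passed the test. Of 15 measured, 5 rose and none fell, and all 15 log2 changes were positive with a median of 0.13. Among all genes tested 1.59% rose, and 6131 of 11513 had a positive change. Atp6v1d had log2 signals of 14.48, 14.66, 14.61, 14.56 and 14.64 at 0.8 µM, against 14.27, 14.27, 14.42, 14.14 and 14.24 in vehicle (1.25-fold higher, limma adjusted p = 0.0184). Atp6v0b rose 1.24-fold and Atp6v1f 1.15-fold, and Atp6ap1 and Atp6v1e1 rose by 0.28 and 0.17 on the log2 scale. These calls were close to the threshold: Atp6v1d was lost without 0.8 µM replicate 5 or vehicle replicate 4, Atp6v1f without 0.8 µM replicate 5 or vehicle replicate 1, and Atp6v0b when any one of 4 arrays was left out. With the arrays centred on their medians, 2 of the 15 passed.

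Other genes tied to the lysosome moved in few cases, beside 1.59% of all genes tested that rose. Gpnmb, a glycoprotein of lysosomes and melanosomes known to be a target of MiT/TFE transcription factors, had log2 signals of 12.81, 12.89, 13.13, 12.97 and 13.36 at 0.8 µM, against 12.53, 12.42, 12.53, 12.49 and 12.72 in vehicle (1.41-fold higher). It was the 1 changed gene among 30 lysosomal hydrolases and membrane proteins, whose median was 0.05. Among 20 autophagy and MiT/TFE genes 2 rose: Rragd, a Rag GTPase that brings mTORC1 to the lysosome (0.46, lost without 0.8 µM replicate 5, vehicle replicate 1 or vehicle replicate 4), and its regulator folliculin, Flcn (0.26, lost when any one of 6 arrays was left out).

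Genes of the amino acid response lay mostly below vehicle at 0.8 µM, few of them past the test, and most were higher at 20 µM than at 0.8 µM. ATF4 is a transcription factor that is translated under amino acid shortage or endoplasmic reticulum stress and switches on amino acid synthesis, import and tRNA charging through sites that carry TGATGNAA, the core of the C/EBP-ATF response element. Of 26 measured genes of this group 3 fell and 1 rose at 0.8 µM, 20 were negative and the median was -0.13. Of 17 aminoacyl-tRNA synthetases 2 fell and none rose, and the median was -0.11. Among all genes tested 1.74% fell and 1.59% rose. The element was searched in RefSeq promoter windows of build GRCr8, from 250 bases before to 50 after each gene's start, on both strands, with 1 window per gene. It was found in 5 of 23 windows of the ATF4 group (1 of 4 changed genes, Fgf21) and in 7 of 15 windows of the synthetases (1 of 2 changed genes, Mars1), compared with 3.82% of 27457 windows. In all, 3 motifs were searched, each picked after the behaviour of the groups was known. CACGTG, the E-box bound by MiT/TFE factors, lay in 2 of 12 proton pump windows (0 of 5 changed genes), 8 of 26 lysosomal windows (0 of 1) and 3 of 16 autophagy windows (0 of the 1 changed gene with a window, of 2 changed), compared with 6.65% of all windows. GCGTG, the core of the AhR element, lay in 3 of 5 windows of AhR targets (1 of the 2 changed genes with a window, since Cyp1a1 was not searched), compared with 31.1% of all. A match describes the letters in the window and is not a site. The stretches below show the element in capitals for Fgf21 and Mars1, which fell at 0.8 µM, and for 6 members without a call at 0.8 µM that were higher at 20 than at 0.8 µM.
Fgf21 (chr1:105221496-105221535, plus strand): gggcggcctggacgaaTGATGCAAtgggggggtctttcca
Mars1 (chr7:65023747-65023786, plus strand): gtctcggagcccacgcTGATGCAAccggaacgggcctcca
Trib3 (chr3:161275531-161275570, plus strand): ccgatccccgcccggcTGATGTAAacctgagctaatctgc
Chac1 (chr3:126795948-126795987, minus strand): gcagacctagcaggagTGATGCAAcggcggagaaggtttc
Nupr1 (chr1:190645933-190645972, plus strand): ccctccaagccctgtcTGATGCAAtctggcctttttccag
Aars1 (chr19:55908354-55908393, minus strand): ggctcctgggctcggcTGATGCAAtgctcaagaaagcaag
Cars1 (chr1:208225329-208225368, plus strand): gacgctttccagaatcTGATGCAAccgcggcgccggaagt
Iars1 (chr17:15193653-15193692, plus strand): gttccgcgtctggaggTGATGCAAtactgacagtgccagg
The other matches lay in the windows of Pck2, Nars1, Tars1 and Yars1, and Aars1 held a further one.

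Psat1, the aminotransferase of serine synthesis, had log2 signals of 13.37, 13.18, 13.23, 13.27 and 13.23 at 0.8 µM, against 13.70, 13.62, 13.45, 13.71 and 13.57 in vehicle, a 1.28-fold fall with no overlap (limma adjusted p = 0.00109). Asns, asparagine synthetase, stood at 12.64, 12.43, 12.51, 12.50 and 12.69 at 0.8 µM, against 12.97, 12.68, 12.88, 12.93 and 12.88 in vehicle. Its groups touched at 1 array each, and the fall was 1.24-fold (adjusted p = 0.013). Fgf21, whose liver transcript is also under PPARalpha, stood at 10.88, 10.67, 10.67, 10.87 and 10.62 at 0.8 µM, against 11.75, 11.64, 11.37, 11.48 and 11.13 in vehicle (1.66-fold lower, lost without 0.8 µM replicate 5). The synthetases that fell were Eprs1 (-0.27) and Mars1 (-0.22, lost when any one of 8 arrays was left out). Ddit4, an inhibitor of mTORC1 signalling, was the 1 member that rose (0.19), and Ddit3, which encodes CHOP, had a log2 change of 0.11 (adjusted p = 0.743). With the arrays centred on their medians, 2 of the ATF4 group and 0 of the synthetases passed by limma. Without centring, 5 synthetases were lower and 1 higher at an unadjusted p under 0.05.

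Other stress responses had few changed members at 0.8 µM. Over all genes tested 3.33% changed, and 15.5% had an unadjusted p under 0.05. The shares of NRF2 targets, heat shock proteins and p53 targets that changed were above 3.33%, on few genes each. Of 26 NRF2 targets 2 rose (Nqo1 and Gstp1) and 1 fell (Me1), and Hmox1, heme oxygenase, had a log2 change of 0.15 (adjusted p = 0.395). Single members rose among 13 heat shock proteins (Hspb1, 0.31, lost when any one of 8 arrays was left out), 15 p53 targets (Phlda3, 0.28, lost when any one of 7 was) and 27 proteasome subunits (Psmd14, 0.23, lost without 0.8 µM replicate 5, vehicle replicate 2 or vehicle replicate 5). Limma called none of 24 endoplasmic reticulum chaperones and unfolded protein response genes, of which 4 had an unadjusted p under 0.05. It called none of 4 metallothionein and zinc genes (0 at an unadjusted p under 0.05), 27 nuclear respiratory chain genes (2), 20 interferon-stimulated genes (3), 23 cell cycle genes (6), 21 ribosomal protein genes (2) and 12 receptors of dopamine, serotonin, histamine and adrenaline, the drug's classical targets in brain (1).

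Few regulators and secreted products of the hepatocyte passed the test, and those that did were lower. Over all genes tested, 1.59% were higher and 1.74% lower. Of 18 hepatocyte transcription factors, Cebpa (-0.41, lost when any one of 7 arrays was left out) and Nr1i3 fell. Ghr, the growth hormone receptor, fell by 0.35, with log2 signals of 11.57, 11.72, 11.54, 11.71 and 11.56 at 0.8 µM, against 11.99, 12.10, 11.98, 11.92 and 11.85 in vehicle. Its other kept probe set had a log2 change of -0.07, and with Cyp2c11 it made 2 changed genes of 13 in the growth hormone, IGF and insulin axis. Of 26 secreted proteins 24 had a negative change with a median of -0.11, and 1 passed the test, the lipoprotein lipase activator Apoc2 (-0.21, lost without 0.8 µM replicate 3, 0.8 µM replicate 5 or vehicle replicate 4).

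Acute phase and coagulation genes split, with 3 of 23 lower and 1 higher. Lbp, the lipopolysaccharide binding protein, had log2 signals of 13.51, 13.68, 13.79, 13.74 and 13.79 at 0.8 µM, against 13.37, 13.25, 13.13, 13.41 and 13.48 in vehicle (1.30-fold higher). C9, the last component of the complement pore, fell by 0.43, plasma prekallikrein Klkb1 by 0.56 and the lipopolysaccharide co-receptor Cd14 by 0.27. Among chemokine and NF-kappaB genes 1 of 16 rose, the signalling interleukin-1 receptor Il1r1 (0.35), whose 2 other kept probe sets lay between -0.19 and -0.05. Of 22 immediate early genes, Ier3 rose (0.24, lost when any one of 5 arrays was left out), while Klf6 (-0.21, lost without 0.8 µM replicate 1) and the phosphatase Dusp6 (-0.71, lost when any one of 6 was) fell. Of 16 clock genes the repressor Nr1d2 fell by 0.39. In the cytoskeletal group of 19, Anxa5 and Tubb5 (0.23) rose and Vim (-0.27) fell, the last 2 with calls lost when any one of 9 and any one of 8 arrays was left out.

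Cd14 also sits on the list of Kupffer cell and macrophage markers. The summed signal of the 11 listed genes on the array was 26003 to 29292 at 0.8 µM and 29622 to 32475 in vehicle, without overlap. Without Cd14, which hepatocytes express as well, the sums overlapped, at 13340 to 14972 at 0.8 µM and 13476 to 16139 in vehicle. Without Lyz2 too they were 4474 to 5986 and 4368 to 6332. Clec4f, the Kupffer cell lectin, had mean log2 signals of 8.58 at 0.8 µM and 8.54 in vehicle, and Csf1r 8.996 in both. Summed marker signals of the leukocyte, endothelial, stellate and cholangiocyte lists overlapped between the groups. Epcam made up most of the cholangiocyte sum, with mean log2 signals of 13.56 at 0.8 µM and 13.44 in vehicle. The next brightest member, Krt19, had 8.32 and 8.06. In bulk RNA, fewer cells of a type and less RNA per cell cannot be told apart.

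The 24 h cultures at 0.8 µM give a second measurement, with no well or array in common with the 48 h comparison. The 2 comparisons are not independent in other respects. Their arrays lie in the same sets of array numbers, and each 0.8 µM array directly follows its vehicle array at both times. The gene filter and the fit are also the same. Whether array order or a shared source of cells moved both comparisons alike was not tested. At 24 h, 95 genes changed (0.825%), 46 higher (0.4%) and 49 lower (0.426%). That count moved with single arrays, from 16 without 0.8 µM replicate 3 or vehicle replicate 4 to 147 without 0.8 µM replicate 1. It was 21, 34 and 38 without 0.8 µM replicates 2, 4 and 5, and 62 and 46 without vehicle replicates 2 and 5. The title of vehicle replicate 2 gives 2 h, while its time entry gives 24 h.

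Most genes called at 48 h pointed the same way at 24 h. Of the 183 genes higher at 48 h, 157 (85.8%) were above vehicle at 24 h, as were 52.0% of all genes, and 15 passed the test at both times. Of the 200 lower genes, 173 (86.5%) were below vehicle at 24 h, as were 48.0% of all genes, and 22 passed at both times. None of the 383 passed in the opposite direction. The median log2 change of the higher genes was 0.28 at 48 h and 0.11 at 24 h, and that of the lower genes -0.35 at 48 h and -0.16 at 24 h. The genes were picked for their 48 h values, which therefore cannot be weighed against those at 24 h.

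Genes that passed at both times included Il1r2 (1.13 at 48 h and 0.54 at 24 h), the AhR targets given above, Il1r1 (0.35 and 0.43), Cyp2d3 (-0.49 and -0.47), Cyp2d2 (-0.33 and -0.29), Pc (-0.49 and -0.29), Agxt (-0.34 and -0.33), Klkb1 (-0.56 and -0.58) and Abcb11 (-0.25 and -0.18). The group means at the 2 times have no array in common, while the SE comes from 1 fit of all 30 arrays. Some of the 24 h calls were near the threshold, with limma adjusted p of 0.041 for Il1r2, 0.032 for Abcb11 and 0.032 for Pc. Others were further from it, at 0.0043 for Cyp2d3 and 5.47e-05 for Cyp1a1. How the 24 h calls of single genes depend on single arrays was not tested.

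The direct test of the difference between the times named 8 genes, 0.0695% of those tested, all with a more negative effect at 48 h, and 858 genes had an unadjusted p under 0.05. Omd changed by -1.05 at 48 h and 0.10 at 24 h, a difference of -1.16 (SE 0.18, limma adjusted p = 0.00304). Sult1e1 changed by -1.36 at 48 h and -0.16 at 24 h, Cyp3a18 by -0.76 and -0.22, and Cyp2c11 by -0.49 and 0.13. Cflar, the caspase-8 inhibitor c-FLIP, changed by -0.75 at 48 h and 0.64 at 24 h, of which the first passed the test on its own (adjusted p = 0.011) and the second did not (adjusted p = 0.0709). Its other kept probe set had a log2 change of -0.41 at 48 h that did not pass. The others were C9 (-0.43 and 0.19), Cab39, a partner of the kinase LKB1 (-0.22 and 0.20), and the small heat shock protein Cryab (-0.43 and 0.00). This count was 4 without 0.8 µM 48 h replicate 5, and 13 without vehicle 48 h replicate 3 or vehicle 24 h replicate 5. For the other genes the values at both times do not show a difference, and the test's failure to call one does not show that the effects were equal.

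**Figure D3:**
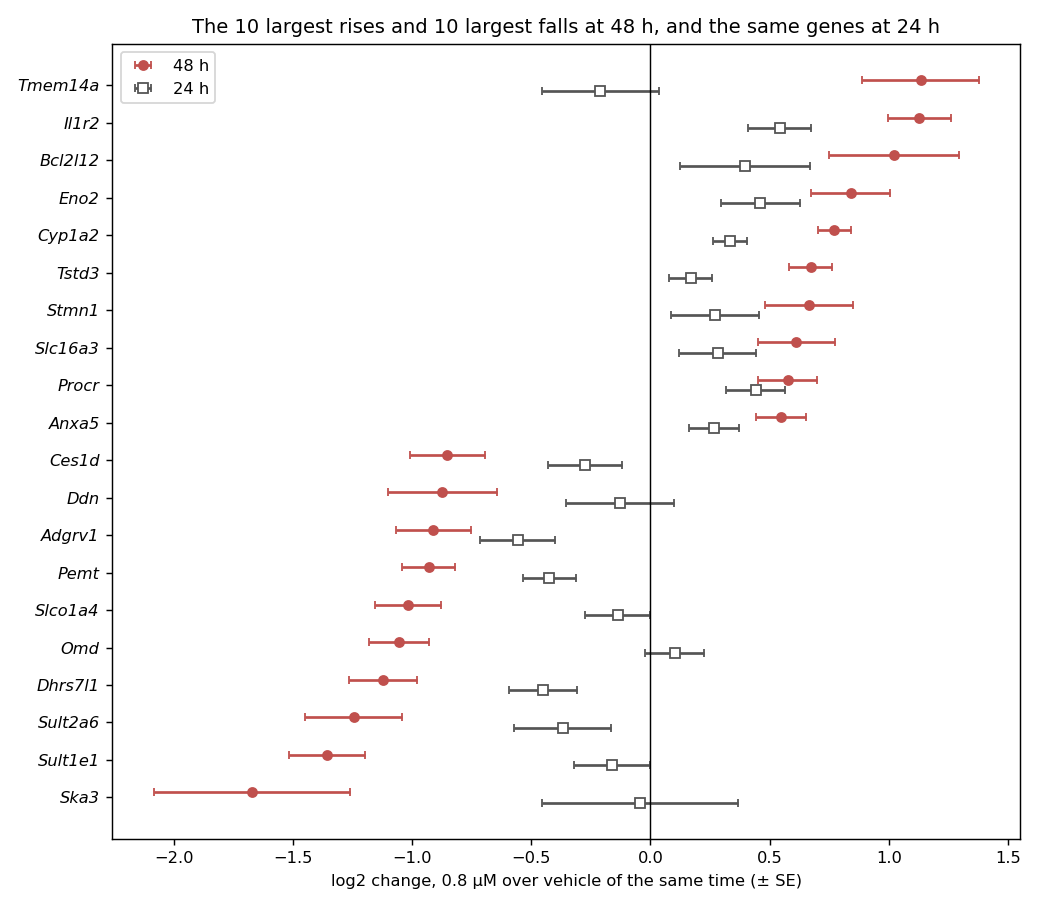
Log2 change of 0.8 µM over vehicle with its SE for the 10 largest rises and 10 largest falls at 48 h, as filled red circles for 48 h and open squares for the same genes at 24 h; each value compares 5 with 5 arrays. The genes were chosen for their 48 h values; at 24 h, 18 of the 20 lie on the same side of 0, and Tmem14a (-0.21) and Omd (0.10) lie on the other side.

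The 20 µM cultures at 48 h share their vehicle arrays with the low dose comparison, so values of both comparisons are set side by side without a measure of their likeness. At 20 µM 4051 genes (35.2%) changed against vehicle, 2339 higher (20.3%) and 1712 lower (14.9%). Directly between the doses, 3097 genes (26.9%) differed, 1673 higher at 20 µM (14.5%) and 1424 lower (12.4%); this contrast shares the 0.8 µM arrays with the low dose comparison. Of the 383 genes changed at 0.8 µM, 161 of the 183 higher and 178 of the 200 lower ones also passed in the same direction at 20 µM against the same vehicle arrays. A shift in those shared arrays moves both comparisons the same way. These counts are therefore no second measurement of the 0.8 µM changes. Of the 183 genes higher at 0.8 µM, 86 were higher still at 20 µM, 11 were lower at 20 than at 0.8 µM, and 86 did not pass between the doses. Of the 200 lower genes, 142 were lower still at 20 µM, 17 were higher at 20 than at 0.8 µM, and 41 did not pass.

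Enzymes and carriers of clearance were among the genes lower still at 20 µM. Sult2a6 changed by -1.24 at 0.8 µM and -3.58 at 20 µM, Ces1d by -0.85 and -3.41, Cyp7a1 by -0.98 and -2.77, Slc10a1 by -0.49 and -2.49, and Cyp2e1 by -0.37 and -2.48. Among the rises, Eno2 changed by 0.84 and 2.69, Gpnmb by 0.49 and 1.96, and Rragd by 0.46 and 2.02. Cyp1a1 changed by 0.52 at 0.8 µM and 0.70 at 20 µM, and the difference between the doses, 0.18, did not pass the test (adjusted p = 0.163). Its mean log2 signals were 15.80 at 0.8 µM and 15.98 at 20 µM. Whether so bright a probe set could show a further rise was not tested. Tmem14a changed by 1.13 and 1.00, with a difference of -0.13 (adjusted p = 0.766).

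In all, 28 genes changed at 0.8 µM and turned back at 20 µM, that is, the contrast between the doses passed in the opposite direction, 17 of them lower and 11 higher at 0.8 µM. Hexim1, an inhibitor of the elongation kinase P-TEFb, changed by 0.54 at 0.8 µM (limma adjusted p = 4.02e-06) and by -0.25 at 20 µM (adjusted p = 0.00358). Asns changed by -0.31 at 0.8 µM and 0.59 at 20 µM, and Arhgef2 by -0.52 and 0.47. With Slc16a7 (-0.16 and 0.34), Ugdh (-0.16 and 0.11) and Nherf1 (0.17 and -0.19), these are the 6 that changed against vehicle in opposite directions at the 2 doses. Procr changed by 0.57 at 0.8 µM and -0.18 at 20 µM, a value that did not pass against vehicle. Genes of this kind were picked on the 0.8 µM arrays that enter both contrasts, and Hexim1, Arhgef2, Slc16a7, Ugdh and Nherf1 were named after their values were seen.

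Several of the turning genes belonged to the amino acid response. Psat1 changed by -0.35 at 0.8 µM and 0.10 at 20 µM, Fgf21 by -0.73 and -0.27, Eprs1 by -0.27 and 0.05, and Mars1 by -0.22 and 0.05, and in each case the difference between the doses passed the test. Between the doses 20 of the 26 genes of the ATF4 group were higher at 20 µM and none was lower, as were 14 of the 17 synthetases, against 14.5% of all genes. Against vehicle at 20 µM, 17 of the ATF4 group rose and 1 fell, and 11 synthetases rose and none fell. The median log2 change of the ATF4 group was -0.13 at 0.8 µM and 0.39 at 20 µM, and that of the synthetases was -0.11 and 0.24. Cholesterol synthesis genes had medians of -0.10 and 0.10, with 8 of 17 higher and 4 lower than vehicle at 20 µM.

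**Figure D4:**
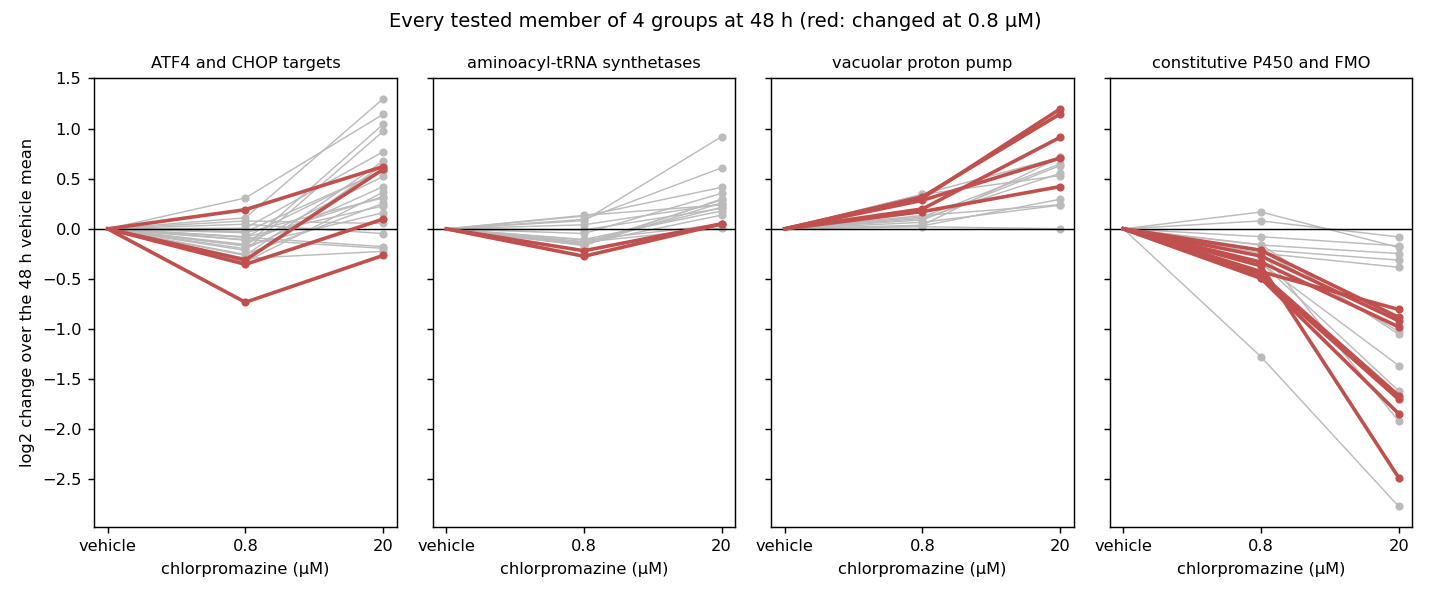
Log2 change over the 48 h vehicle mean at 0.8 and 20 µM for every tested member of 4 groups, with vehicle set to 0; each line is 1 gene and red lines are genes that changed at 0.8 µM. Proton pump genes lie above 0 at 0.8 µM (15 of 15 positive), constitutive P450 and FMO genes mostly below 0 (18 of 20 negative), and 20 of 26 ATF4 group members are negative at 0.8 µM while their median at 20 µM is 0.39.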

How the data were processed

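RNA of 30 cultures was measured on 1-colour Affymetrix rat arrays. Per the submitters' processing notes the deposited values are MAS5 signals, which are intensity values on a linear scale, and the version is not given in the sources used here. The values show that the authors scaled each array to a common trimmed mean of 1500, between the percentiles 2 and 98. Signals were floored at 16 and taken to log2 with no further normalization. Of 31042 probe sets without controls, 21249 lay above their array's percentile 40 on at least 5 arrays, and the brightest probe set with 1 symbol stood for each of 11513 genes. Symbols came from GEO's platform annotation: 20826 probe sets had 1 symbol, 436 several and 9780 were not listed. The fit used limma 3.58.1 in R 4.3.3 on 6 group means of all 30 arrays, with a trended spread and Benjamini-Hochberg adjustment over all genes, and was tested on simulated data.

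Named genes are the 10 largest changes per direction among changed genes without overlap, a panel, up to 3 members per list by p, and those differing between times. Further members were named after their values were seen. The comparison and the 48 lists were chosen with earlier results of these data known. Replicate numbers follow accession order and coincide with the sets of 6 array numbers, for which the labels name no shared animal, day or plate. Promoter sequences are RefSeq's, build GRCr8. The number of arrays limits the precision, and alternatives are given in the closing section.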

Additional observations from a re-analysis of the deposited data

Results flagged for a closer look

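The 156 genes picked by the naming rule give 312 sets of 5 arrays, 1 per gene and 48 h group, and 15 of these held a sample whose gap to its nearest neighbour took up more than 0.71 of the group's range. That is 4.81% of the sets. A rate of about 1 in 20 would hold for independent sets of normally spread values. These sets share the same arrays, and many of their genes were picked by their values, so the share cannot be judged against that rate. In the 0.8 µM group, where 6 were found, replicate 4 was the far sample in 5 and replicate 5 in 1. The 9 in vehicle fell on replicates 1, 2, 4 and 5.

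At 0.8 µM, Sult2a6 was lowest in replicate 5 at a log2 signal of 9.39, with the nearest array at 9.71 and a gap of 0.737 of the range. Dhrs7l1 was highest in replicate 4 at a log2 signal of 10.32, with the nearest array at 9.85 and a gap of 0.737 of the range. Ddit3 was lowest in replicate 4 at a log2 signal of 11.10, with the nearest array at 11.68 and a gap of 0.788 of the range. Scd2 was highest in replicate 4 at a log2 signal of 11.60, with the nearest array at 11.14 and a gap of 0.842 of the range. Psmb3 was lowest in replicate 4 at a log2 signal of 14.77, with the nearest array at 14.96 and a gap of 0.756 of the range. Cyp2c12 was highest in replicate 4 at a log2 signal of 9.68, with the nearest array at 9.24 and a gap of 0.78 of the range.

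In vehicle, Sult1e1 was lowest in replicate 5 at a log2 signal of 10.82, with the nearest array at 11.22 and a gap of 0.871 of the range. Adgrv1 was lowest in replicate 1 at a log2 signal of 10.14, with the nearest array at 10.67 and a gap of 0.852 of the range. Cyp8b1 was highest in replicate 4 at a log2 signal of 13.79, with the nearest array at 13.66 and a gap of 0.824 of the range. Pfkp was highest in replicate 5 at a log2 signal of 12.50, with the nearest array at 12.30 and a gap of 0.784 of the range. Adm was highest in replicate 5 at a log2 signal of 13.74, with the nearest array at 13.50 and a gap of 0.753 of the range. Atp6v0b was highest in replicate 1 at a log2 signal of 12.63, with the nearest array at 12.32 and a gap of 0.734 of the range. Cps1 was lowest in replicate 2 at a log2 signal of 16.06, with the nearest array at 16.33 and a gap of 0.793 of the range. C1qa was lowest in replicate 2 at a log2 signal of 9.63, with the nearest array at 9.94 and a gap of 0.747 of the range. Pecam1 was lowest in replicate 1 at a log2 signal of 5.83, with the nearest array at 7.53 and a gap of 0.802 of the range.

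The effect of 0.8 µM differed between 48 and 24 h by the interaction test in limma for 8 genes, each more negative at 48 h. The difference in log2 change, 48 h minus 24 h, was -1.39 for Cflar, -1.19 for Sult1e1, -1.16 for Omd, -0.63 for Cyp2c11, -0.62 for C9, -0.53 for Cyp3a18, -0.44 for Cryab and -0.41 for Cab39.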

How the results depend on the processing

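The count of 383 changed genes at 48 h stayed within 1.5 times, at 268 to 464, under the other floors, filters, probe set rules and spread models, quantile normalization, array weights, terms for array number or set of 6, and fits on 10 or 20 arrays. The test of all 31042 probe sets without a filter, chosen after seeing the data, gave 314. Centring the arrays on their medians gave 173, and thresholds of 0.01 and 0.1 on the adjusted p gave 126 and 657. Fitting only the 10 arrays gave 301, 104 higher and 197 lower. Leaving out single arrays gave 199 to 384 at 48 h, 16 to 147 at 24 h, 4 to 13 for the difference between times, and 2792 to 2935 for 20 against 0.8 µM. The difference between times named 4 genes with centring, 5 without the trend and 13 with a set of 6 as a batch term. Of 81 changed genes named by the rule, none reversed, 45 kept the call whichever array was left out, and 48 kept it in all 11 other settings. Of 451 list counts, 385 stayed within 1.5 times, and centring moved 20 lists. The causes were not tested. Replicate numbers coincide with the sets of 6, so the fit with that term is also the replicate block; it gave 446 changed genes at 48 h, and the labels do not say that a set shares an animal, day or plate. The 20 µM comparison was not run under alternatives.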

Other observations

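Of the probe sets that passed the filter, 5558 had no single gene symbol and entered no gene count. When all kept probe sets were tested together in limma, 382 changed at 0.8 µM against vehicle at 48 h, and 55 of these had no single symbol, 27 higher and 28 lower. Their log2 changes ran from -2.67 to 2.03.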
